A study of Rattus norvegicus with 31 samples.

Results

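The testes of this study differed in how much RNA of late spermatids they carried. The arrays were sorted by Prm1, which encodes protamine 1, the small basic protein that packs DNA in the sperm head. An array was called high where the deposited log2 signal of Prm1 was above 0 and low where it was 0 or below. Of the 25 arrays of sham-treated and hormone-ablated rats, 8 were high and 17 were low. The high arrays were sham replicates 6, 7 and 8, of 14 sham arrays, and ablation replicates 4, 5, 6, 7 and 9, of 11 ablation arrays. The arrays of each class were chosen by their Prm1 signal, and Prm1 is left out of every result. Because a measured value made the classes, a test between them measures how a gene goes with Prm1 across arrays, and not the effect of a treatment.

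All 31 arrays of the series, Affymetrix arrays, hold total RNA of testes from LBNF1 rats aged 25 to 27 weeks. By the titles and the treatment field of the labels, all of these rats had been irradiated, with 6 Gy applied to the lower abdomen. In the ablation group the rats were given a GnRH antagonist together with flutamide, an antagonist of the androgen receptor, and 6 further arrays come from rats given these and estradiol, a group the labels name FSH supplementation. The sham group had neither antagonist. A text field of the labels describes sham replicates 1 to 10 as control and 11 to 14 as irradiated, although the titles call all 14 irradiated, and all 3 high sham arrays are among the 10 described as control. The labels call the replicates biological, and do not say whether an array pools animals. No unirradiated testis is marked as such, so no value here can be set against a normal testis.

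Spermatids are the haploid germ cells that follow meiosis. Round spermatids build the acrosome. Elongating spermatids then replace histones with transition proteins and protamines, condense the nucleus and build the tail, using mRNAs many of which are made earlier and stored. Irradiation of LBNF1 rats leaves tubules with Sertoli cells and spermatogonia that do not go on to differentiate, and suppressing gonadotropins and testosterone is known to let differentiation resume in this strain. In a whole testis, fewer cells of a type and less RNA per cell cannot be told apart.

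Near the threshold the classes lie close together. Prm1 was 5.78 in sham 6, 3.99 in sham 7 and 1.31 in sham 8. Among ablation arrays it was 4.18 in ablation 4, 2.32 in ablation 9, 1.44 in ablation 5, 0.85 in ablation 6 and 0.44 in ablation 7. Just outside were ablation 8 at -0.38, ablation 11 at -0.49, sham 13 at -0.68 and ablation 10 at -0.87. These 4 low arrays, and sham 9 and sham 14 as well, lay above the 40th percentile of their own array. That percentile was between -1.93 and -1.75 and is called the filter level below. The classes thus separate more from less Prm1 signal, and not signal from none. No estradiol array would have been high, since its Prm1 was -6.09 to -2.43. The estradiol values were deposited with fewer decimals than those of the other arrays. Whether they were scaled together with the others is not known here.

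Of the other markers given with the rule, Tnp1, which encodes transition protein 1, bears the label out for 6 of the 8 high arrays. It was above the filter level in sham 6, 7 and 8 and in ablation 4, 5 and 9, and in none of the 17 low arrays. Sham 8 passed narrowly, at -1.82 against its own filter level of -1.88. In ablation 6 and ablation 7 Tnp1 was listed below that level, at -2.22 and -2.94. Odf1, an outer dense fibre protein of the sperm tail, was above the filter level in 15 of the 25 arrays, low ones included. In sham 8 Odf1 was -1.40, within the low sham range of -3.15 to -1.04.

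Across the 25 arrays the pairwise correlation of all probe sets was 0.870 to 0.976. Sham 6 stands apart in its spermatid and spermatocyte genes, and not in those of spermatogonia. It held the highest of the 25 values for 729 of 14216 genes, which is 5.13%, and for 19 of the 22 genes of the elongating spermatid list that are on the array, which is 86.4%. Results that rest on it are given with and without it where both fits were made.

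Transition proteins take the place of histones before the protamines do. Tnp1 was 3.56 in sham 6, 1.28 in sham 7 and -1.82 in sham 8, while the 11 low sham arrays ran from -7.48 over a median of -5.81 to -2.27. In ablation it was 1.14 in ablation 4, -0.41 in ablation 5, -0.43 in ablation 9, -2.22 in ablation 6 and -2.94 in ablation 7, against -5.89 to -2.52 with a median of -4.21 in the 6 low arrays. All high sham arrays lay above all low sham arrays, and in ablation only ablation 7 fell into the range of the low arrays. The estradiol arrays were at -7.20 to -4.92, as low as the low sham arrays. Tnp2, the second transition protein, was 2.63 in sham 6, -0.25 in sham 7 and -2.11 in sham 8, above the low sham maximum of -3.52. Ablation 4 had -0.43 and ablation 5 had -1.98, while ablation 6, 7 and 9 had -5.17, -3.41 and -4.38. Tnp2 thus passed the filter level in sham 6, sham 7 and ablation 4 alone. Neither gene was tested, because both were above the filter level in fewer than 8 arrays, the number asked of a probe set. Prm2 and Prm3, further protamine genes, were 1.09 and 0.51 in sham 6 and -1.69 and -1.51 in ablation 4, and Hils1, a spermatid linker histone, was 0.73 and -1.19 there. Those 3 genes had low sham medians of -3.87, -4.12 and -4.99.

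In the fit with treatment as a covariate, limma called 3 of 20049 probe sets at an adjusted p under 0.05, which is 0.015%. They belong to Oaz3, Odf1 and Smcp, and all were higher in the high arrays. All 3 are on the elongating spermatid list, the stage that Prm1 itself marks, so they are given as values with no p of their own.

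Odf1 (probe set 1368496_at) was 2.34 in sham 6, 0.71 in sham 7 and -1.40 in sham 8, against -3.15 to -1.04 with a median of -1.81 in low sham arrays. It was 0.77, -0.39, -0.58, -1.18 and -1.26 in ablation 4, 9, 5, 6 and 7, against -2.19 to -1.44 with a median of -1.85 in low ablation arrays. In ablation the classes do not overlap, and in sham only sham 8 lies within the low range. The mean of the high arrays exceeded that of the low arrays by 1.86 ± 0.33 on the log2 scale (SE, 8 against 17 arrays), a fold of 3.64. Within sham the difference was 2.53 ± 0.50 and within ablation 1.29 ± 0.29. These SEs, and those of the other genes, are from limma, which takes 1 spread for both classes. For Odf1 the standard deviation was 1.88 over the 3 high sham arrays and 0.56 over the 11 low ones.

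Smcp (1368364_at), a cysteine-rich protein of the sperm mitochondrial capsule, had the largest difference of all genes kept. It was 3.11 in sham 6, 1.82 in sham 7 and -0.77 in sham 8, against -4.75 to -0.70 with a median of -1.90 in low sham arrays. In ablation 4, 5, 9, 7 and 6 it was 1.54, 0.26, -0.08, -1.23 and -1.33, against -3.43 to -1.33 with a median of -1.88. The lowest high and the highest low ablation array are equal to 2 decimals. Its difference was 2.67 ± 0.49, a fold of 6.38, with 3.61 ± 0.73 within sham and 1.87 ± 0.45 within ablation.

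Oaz3 (1379993_at), the germ cell antizyme that restrains ornithine decarboxylase, was 2.47, 0.46 and -0.93 in sham 6, 7 and 8, all above the low sham range of -2.72 to -1.15. It was 1.00, -0.35, -0.72, -0.75 and -1.29 in ablation 4, 9, 6, 5 and 7, against -3.11 to -1.19 with a median of -2.07. Only ablation 7 overlapped the low ablation arrays. The difference was 1.95 ± 0.31, a fold of 3.87, with 2.35 ± 0.43 within sham and 1.61 ± 0.37 within ablation.

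**Figure D1:**
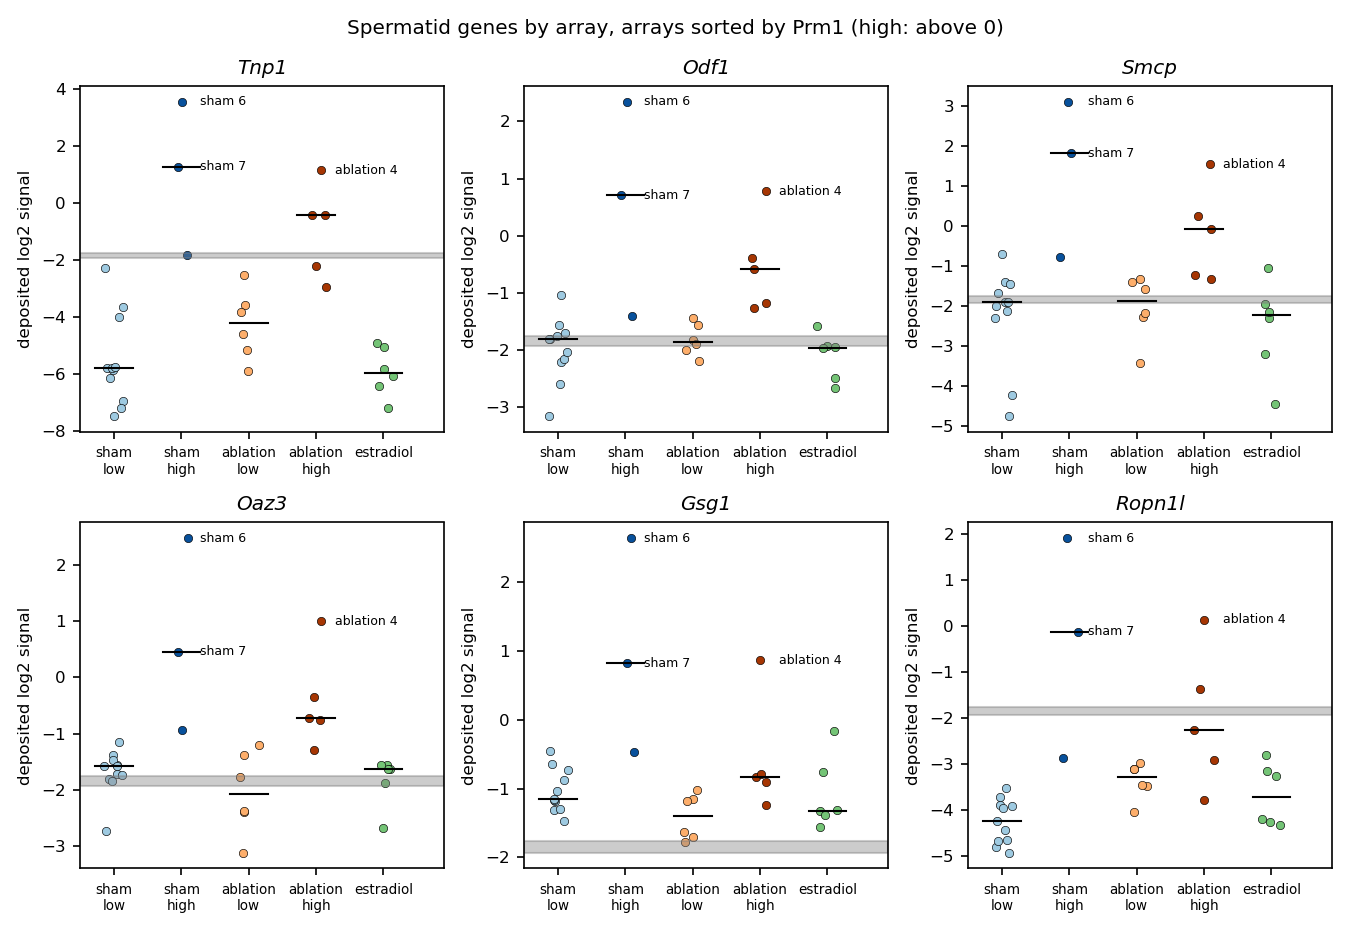
Deposited log2 signal of 6 spermatid genes in each of the 31 arrays, by treatment and by class; each point is 1 array, each short line the median of its group, and the grey band the range of the filter level over arrays (-1.93 to -1.75). Sham 6 is the highest point in all 6 panels, sham 7 and ablation 4 come next, and the remaining high arrays lie nearer the low ones.

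The rest of the list was measured less often. Of 36 entries, 22 have a probe set and 11 passed the filter. A gene could pass through the high arrays alone, so the counts that follow only describe. Among the 11, the difference was above 0 in 10 with a median of 0.61. Over all 10938 genes kept it was above 0 in 3838, with a median of -0.05. Of the 11, 6 passed an unadjusted p of 0.05 upward, while 1.68% of all genes did so. Gsg1, a germ cell protein that binds a testis poly(A) polymerase, had a difference of 1.38 ± 0.28. Gapdhs, the sperm glyceraldehyde-3-phosphate dehydrogenase, had 0.61 ± 0.17 and Akap3, a scaffold of the fibrous sheath, 0.79 ± 0.28. Odf2, a fibre protein that somatic centrosomes also carry, had -0.15 ± 0.13 and was above the filter level in all 25 arrays. Odf4 had 0.05 ± 0.27.

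Several genes of tail and head structures exceeded the filter level in few arrays. Akap4, the main protein of the fibrous sheath, was 0.71 in sham 6, -2.09 in ablation 4 and -3.09 in sham 7, and -5.23 or less in the other high arrays. Tcp11 was 0.94 in sham 6 and -3.26 or less in the remaining 7 high arrays. Capza3, an actin capping protein of the sperm head, was -0.19 in sham 6 and -3.87 or less elsewhere. Ropn1l, a fibrous sheath protein, was 1.91 in sham 6, 0.14 in ablation 4, -0.12 in sham 7 and -1.36 in ablation 9. Cabyr, a calcium-binding tail protein, went the other way in ablation 4, where its -6.51 was the lowest of the high arrays. Sham 6 thus shows the widest set of late spermatid genes. Ablation 4 held the highest of the 11 ablation values for 15 of the 22 genes, 68.2%, against 6.42% of all genes.

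A gene outside the lists, Crisp2, a cysteine-rich protein of the sperm tail and acrosome, was found by scanning for separation and is named after its values were seen. It was 3.28, 1.47 and -3.43 in sham 6, 7 and 8 and 0.96, -0.51, -1.24, -2.12 and -3.13 in ablation 4, 9, 5, 6 and 7. The low arrays ran up to -3.61 in sham and -4.76 in ablation. It is the only one of 14216 genes, 0.00703%, whose 8 high arrays all lie above all 17 low arrays, and 3 of those 8 values are below the filter level. Within sham alone, 60 genes separated upward in this way (0.422%), 7 of them among the 22 of the elongating list: Capza3, Cimap1a, Fscn3, Oaz3, Ropn1l, Tnp1 and Tnp2. All 3 high values were above the filter level for Cimap1a, Oaz3 and Tnp1, and the other 4 genes separate in part by ranks among values below it. Within ablation 26 genes did (0.183%), and Odf1 and Smcp were among them. No gene of the round spermatid list separated in either treatment.

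How far the spermatid programme was filled differs from array to array. To weigh all genes of a list, each value below the filter level was raised to it and the mean difference from the low arrays of the same treatment was taken. For the 22 elongating spermatid genes this was 2.44 in sham 6, 0.92 in ablation 4 and 0.90 in sham 7. It was 0.35 in ablation 9, 0.22 in ablation 5, 0.15 in ablation 6, 0.13 in sham 8 and 0.03 in ablation 7. Low arrays lay between -0.08 and 0.11, so that ablation 7 is within their range. The number of genes more than 1 above the low arrays was 17 in sham 6, 9 in ablation 4, 8 in sham 7, 4 in ablation 9 and 3 in ablation 5. It was 0 in sham 8, ablation 6, ablation 7 and all 17 low arrays.

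Promoters of the list are shown for Oaz3 and Smcp, which were called, for Tnp1, the marker, and for Gapdhs and Akap4, which hold the same letters. Akap4 was above the filter level in sham 6 alone, so the 5 genes do not share 1 pattern over arrays. Spermatid genes are classically switched on by the activator CREM, which binds cAMP response elements. The 250 bases before the start of each gene (RefSeq, GRCr8; the last base is the one before the start) were searched on both strands for the consensus element TGACGTCA and for a 1-base variant, TGACATCA, which reads TGATGTCA on the other strand. The variant was added after the Oaz3 and Smcp promoters had been read. Capitals mark the octamers.

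Tnp1 (chr9:82044279-82044528, minus strand): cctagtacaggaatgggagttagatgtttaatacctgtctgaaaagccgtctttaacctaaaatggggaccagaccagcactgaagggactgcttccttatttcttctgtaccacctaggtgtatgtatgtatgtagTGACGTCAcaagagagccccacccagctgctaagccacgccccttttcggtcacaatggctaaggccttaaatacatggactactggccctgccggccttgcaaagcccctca

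Oaz3 (chr2:184765177-184765426, minus strand): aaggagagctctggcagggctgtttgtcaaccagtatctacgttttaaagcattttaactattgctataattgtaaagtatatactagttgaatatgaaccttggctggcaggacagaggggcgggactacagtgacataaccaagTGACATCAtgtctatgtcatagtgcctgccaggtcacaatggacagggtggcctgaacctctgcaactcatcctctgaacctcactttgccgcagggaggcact

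Smcp (chr2:180861565-180861814, minus strand): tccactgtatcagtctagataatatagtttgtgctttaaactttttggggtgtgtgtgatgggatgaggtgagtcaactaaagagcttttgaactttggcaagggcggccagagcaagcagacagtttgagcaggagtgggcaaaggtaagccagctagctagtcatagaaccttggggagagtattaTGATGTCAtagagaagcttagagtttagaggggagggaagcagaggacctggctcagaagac

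Gapdhs (chr1:95121056-95121305, minus strand): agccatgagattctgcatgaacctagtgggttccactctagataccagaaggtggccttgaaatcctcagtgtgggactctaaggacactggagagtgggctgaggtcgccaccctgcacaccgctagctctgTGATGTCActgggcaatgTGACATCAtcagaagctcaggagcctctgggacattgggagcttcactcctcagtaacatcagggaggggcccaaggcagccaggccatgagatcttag

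Akap4 (chrX:18117550-18117799, minus strand): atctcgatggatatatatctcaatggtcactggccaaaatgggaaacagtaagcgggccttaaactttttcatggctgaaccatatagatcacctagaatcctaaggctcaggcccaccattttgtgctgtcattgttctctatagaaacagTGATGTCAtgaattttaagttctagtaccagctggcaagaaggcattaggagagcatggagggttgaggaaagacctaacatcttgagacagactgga

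The Tnp1 promoter holds the consensus octamer, with its first base 113 bases before the start. Oaz3 holds the variant 104 bases, Smcp 62 bases and Akap4 98 bases before the start, and Gapdhs holds it at 2 places. Of 19 promoters found for the 22 genes, 7 hold the variant (36.8%), against 1031 of 27457 promoters of all genes (3.75%). Without Oaz3 and Smcp, the promoters that led to the choice of letters, it was 5 of 17 (29.4%). The consensus was in 1 of 19 (5.26%) and in 1.7% of all. Among 16 promoters of the round spermatid list, 1 held the variant and 1 the consensus. Carriers include genes that were high in few arrays, such as Akap4 and Capza3. A match of letters is a description, and binding was not measured. Crem itself, a gene of the round spermatid list, differed by -0.02 ± 0.15.

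Round spermatid and acrosome genes had smaller mean differences. The mean difference of 19 genes was 0.63 in sham 6, 0.20 in ablation 4 and 0.04 or less in the other high arrays. Sham 6 was the highest of 25 arrays in 11 of 19 (57.9%), and ablation 4 the highest ablation array in 9 of 19 (47.4%). Acrv1, a protein of the acrosomal matrix, was -1.08 in sham 6, -1.76 in sham 7 and -1.89 in ablation 4, with low sham arrays at -2.42 to -1.35. It was -1.21, -1.30 and -1.40 in ablation 6, 9 and 7, above all low ablation arrays at -2.76 to -1.67, and -2.31 in ablation 5. In the 6 estradiol arrays, none of them high by Prm1, Acrv1 was -1.98 to -1.09. Their mean was -1.56, against -1.63 over the 8 high arrays, so the level of Acrv1 is not particular to arrays with much Prm1. Its difference was 0.23 ± 0.26 within sham and 0.56 ± 0.28 within ablation. Dnajb3, a spermatid chaperone, was 0.40 in sham 6 and -1.19 in ablation 4, against at most -3.23 and -2.29 in the low arrays of each treatment. Insl6, a relaxin family hormone of male germ cells, was -0.67, -1.51 and -1.53 in sham 6, sham 7 and ablation 4, and -2.95 or less in the other high arrays. Of the 10 genes kept, 3 passed an unadjusted p of 0.05 upward, where 1.68% of all genes did, none was called, and the median difference was 0.07.

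Spermatocytes precede spermatids, and genes of the spermatocyte lists were compared next. Some of them also serve in spermatids or sperm, and whether their signal came from spermatocytes or from spermatids was not tested. Sham 6 and, less so, sham 7 and ablation 4 lay above the low arrays of their treatment in the mean of the pachytene list, and the other high arrays did not. The mean difference over 18 genes of pachytene and later spermatocytes was 0.81 in sham 6, 0.30 in sham 7 and 0.14 in ablation 4, and between -0.03 and 0.06 in the rest. The low arrays were at -0.15 to 0.13 in sham and -0.11 to 0.10 in ablation. Over 13 genes of meiotic chromosomes it was 0.49, 0.13 and 0.10 in sham 6, sham 7 and ablation 4. For this list the low arrays were at -0.05 to 0.06 in sham and -0.12 to 0.10 in ablation. Ablation 4 thus equals the highest low ablation array to 2 decimals. In sham 6, 7 of the 18 pachytene genes were more than 1 above the low sham arrays. Sham 7 and ablation 4 each had 1.

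Sycp3, a protein of the synaptonemal complex, was 1.20 in sham 6, -1.06 in sham 7 and -2.56 in sham 8, with low sham arrays at -2.93 to -1.57. It was -0.62 in ablation 4, -0.92 in ablation 9, -0.95 in ablation 5, -1.06 in ablation 7 and -1.44 in ablation 6. The low ablation arrays were at -1.90 to -0.95. Ablation 4 and 9 lay above them, ablation 5 equalled the highest of them to 2 decimals, and ablation 6 and 7 lay within. Ldhc, the lactate dehydrogenase of germ cells, was 1.25, -0.46 and -2.90 in sham 6, 7 and 8, against -3.40 to -1.86. In ablation 4, 5, 9, 7 and 6 it was -0.44, -1.17, -1.46, -1.67 and -1.79, against -2.51 to -1.50, so that ablation 4, 5 and 9 lay above all low ablation arrays. Hspa2, a chaperone needed for meiosis, was 1.58, -0.17 and -0.84 in the high sham arrays, against -1.71 to -0.67. In the ablation arrays it was between -1.07 and -0.08, against -0.84 to -0.33, with ablation 4 and 5 above that range. Sham 8 was within the low range for all 3 genes. The 6 estradiol arrays, none of them high by Prm1, were at -1.55 to -0.43 for Sycp3, -1.97 to -1.12 for Ldhc and -1.27 to -0.32 for Hspa2. Ablation 4 lay above all of them in Ldhc and Hspa2, but below estradiol 1 in Sycp3. In Ldhc, estradiol 1 and 2, at -1.12 and -1.23, lay above ablation 9.

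None of these was called with the Prm1 classes. Ldhc was above the filter level in 8 of the 25 arrays, the fewest that the filter allows, and most of these were high arrays. Its p-values here and below therefore only describe. The differences were 1.20 ± 0.34 for Ldhc (limma, adjusted p = 0.488), 0.90 ± 0.30 for Sycp3 (adjusted p = 0.675) and 0.64 ± 0.22 for Hspa2 (adjusted p = 0.683). Without sham 6 they were 0.74, 0.40 and 0.28. All 3 were called where Tnp1 or Odf1 set the classes, which leaves sham 6, sham 7 and ablation 4 as the high arrays. With Tnp1, where 0.229% of probe sets were called, the differences were 2.40 for Ldhc (limma, adjusted p = 0.000429), 1.85 for Sycp3 (adjusted p = 0.00651) and 1.33 for Hspa2 (adjusted p = 0.00803). The Tnp1 and Odf1 classes were not fitted without sham 6, which was far above sham 7 and ablation 4 in all 3 genes. Ldhc, for example, was 1.25 in sham 6, -0.46 in sham 7 and -0.44 in ablation 4. With the Prm1 classes, the differences within sham were 1.82 ± 0.56, 1.65 ± 0.49 and 1.24 ± 0.33, and within ablation 0.67 ± 0.26, 0.25 ± 0.19 and 0.12 ± 0.18. The test of the difference between treatments, an interaction term in limma, gave adjusted p-values of 0.804, 0.802 and 0.802. No probe set passed that test (0%), while 1194 had an unadjusted p under 0.05 (5.96%).

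Other genes of spermatocytes and spermatids in sham 6 included Meig1, needed for the sperm flagellum, at 0.61 and Hmgb4, a chromatin protein of the germ line, at 0.63. Ybx2, which stores germ cell mRNA, was -0.23 in sham 6, and Klhl10, a spermatid ubiquitin ligase adaptor, was -0.65. For Hmgb4, Ybx2 and Klhl10 the value of sham 6 alone is given. Stag3, a meiotic cohesin, was -0.29 in sham 6 and Tcfl5, a transcription factor of spermatocytes, -0.25. Tcfl5 was 0.08 in estradiol 1 and -0.39 to -0.27 in the other estradiol arrays, so its level does not mark sham 6. For Stag3 the median of the low ablation arrays, -0.55, was above sham 7 at -1.90 and sham 8 at -1.51. Foxj1, a regulator of motile cilia, was -0.43 in sham 6, -0.74 in sham 7 and -1.20 in sham 8, above low sham arrays at -2.74 to -1.49. Meig1 and Foxj1 belong to the sperm tail and cilia list, which as a whole did not go with the classes. Its 6 kept genes had a median difference of -0.003, with 3 above 0, and of 0.03 within sham. Sham 6 was the highest of 25 arrays in 9 of its 20 genes on the array (45%).

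**Figure D2:**
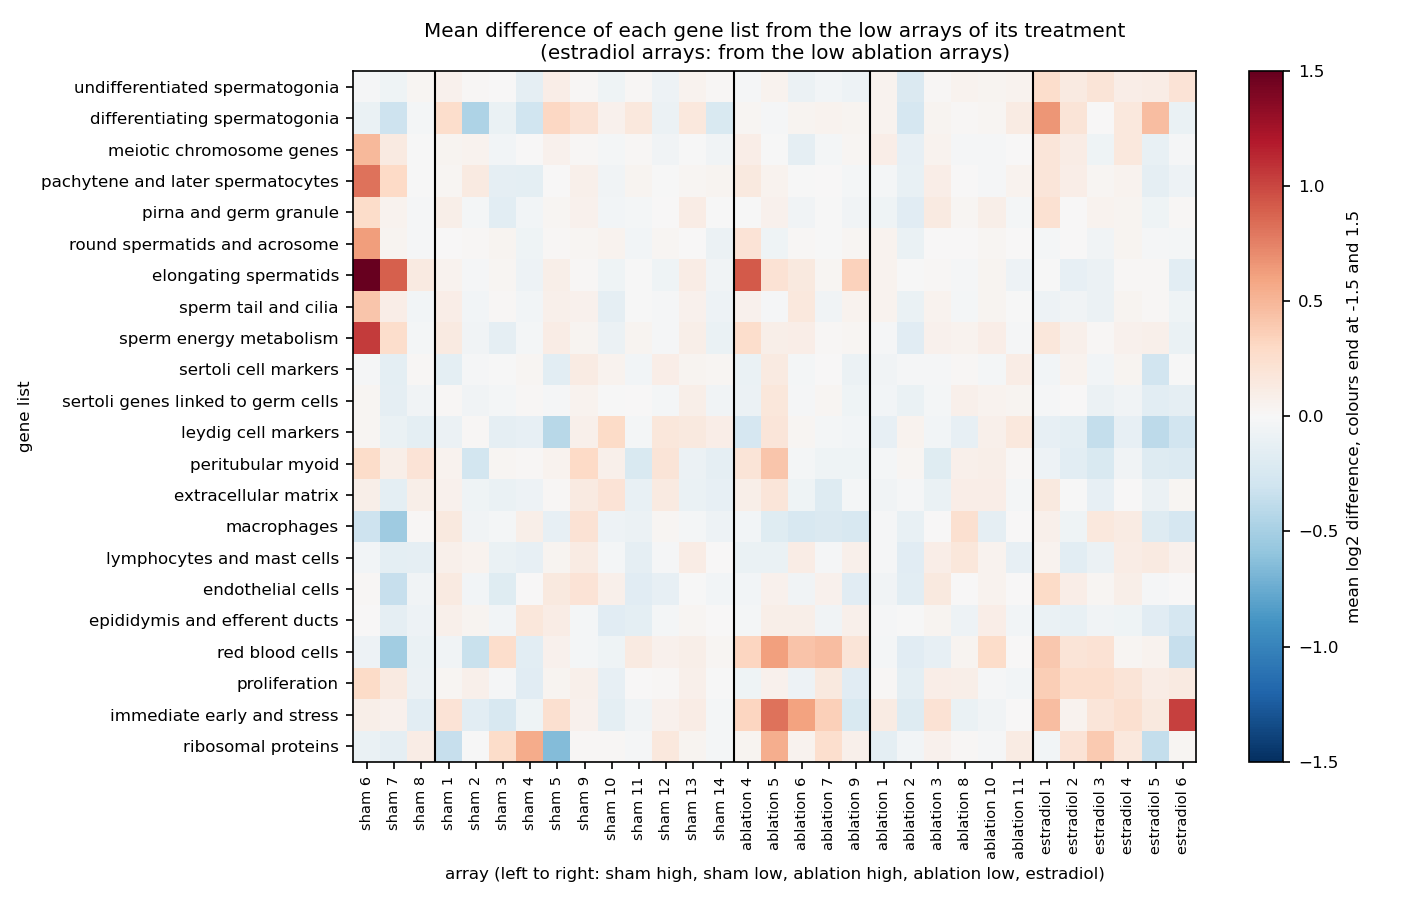
Mean log2 difference of 22 gene lists (rows) from the low arrays of the same treatment, in each of the 31 arrays (columns), with values under the filter level raised to it; estradiol arrays are set against the low ablation arrays, red is higher and blue lower. The elongating spermatid row is strongest in sham 6 (2.44), followed by ablation 4 (0.92) and sham 7 (0.90), and the spermatocyte rows are red in sham 6.

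The Prm1 signal can also enter the fit in full in place of 2 classes. Fitted on Prm1 as a continuous value, raised to the filter level, 44 probe sets were called by limma (0.219%), 37 of them higher with more Prm1. This fit was added after the data were seen. Per log2 unit of Prm1 the slope was 0.37 ± 0.05 for Ldhc (adjusted p = 0.000199), 0.28 ± 0.05 for Sycp3 (adjusted p = 0.00394) and 0.21 ± 0.04 for Hspa2 (adjusted p = 0.00262). The p of Ldhc only describes, because that gene passed the filter mostly through high arrays. Spa17, a sperm surface protein, had a slope of 0.27 ± 0.03 (adjusted p = 5.79e-05) and Cox7b2, a testis subunit of cytochrome c oxidase, one of 0.24 ± 0.03 (adjusted p = 0.000252). Without sham 6, 15 probe sets were called (0.0748%), 6 higher and 9 lower. Oaz3, Odf1, Smcp, Gsg1 and Spa17 were among the 6, and Ldhc, Sycp3, Hspa2 and Cox7b2 were not, with adjusted p-values of 0.0963, 0.473, 0.396 and 0.113 in limma. Within ablation alone the continuous fit called 3 probe sets, 0.015%, which were those of Oaz3, Odf1 and Smcp.

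Within each treatment the differences of the called genes had the same direction. Differences of at least 2-fold in sham and in ablation were found for 4 of 10938 genes (0.0366%). Smcp, Odf1 and Oaz3 were 3 of them, and 1700009N14Rikl, a gene of provisional name, was the fourth, with 1.77 in sham and 1.02 in ablation. Over the 11 elongating genes kept, the median difference was 1.42 within sham and 0.25 within ablation, while all genes had medians of -0.05 and -0.04. A difference between treatments was not called for any gene by the interaction test above. For pachytene genes the medians were 0.44 and -0.01, over 10 genes. The sham values rest on 3 high arrays, of which sham 8 had little of either set. Leaving out sham 8 raised the number of calls within sham from 0 (0%) to 29, Ldhc, Sycp3, Hspa2 and C1qa among them, and leaving out sham 6 or sham 7 gave 1 each. At an unadjusted p under 0.05, 1501 probe sets (7.49%) passed within sham with all arrays, and 1375 (6.86%) within ablation. The only call within ablation (0.00499%) was an unnamed probe set, 1386340_at, which was lower in the high arrays.

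**Figure D3:**
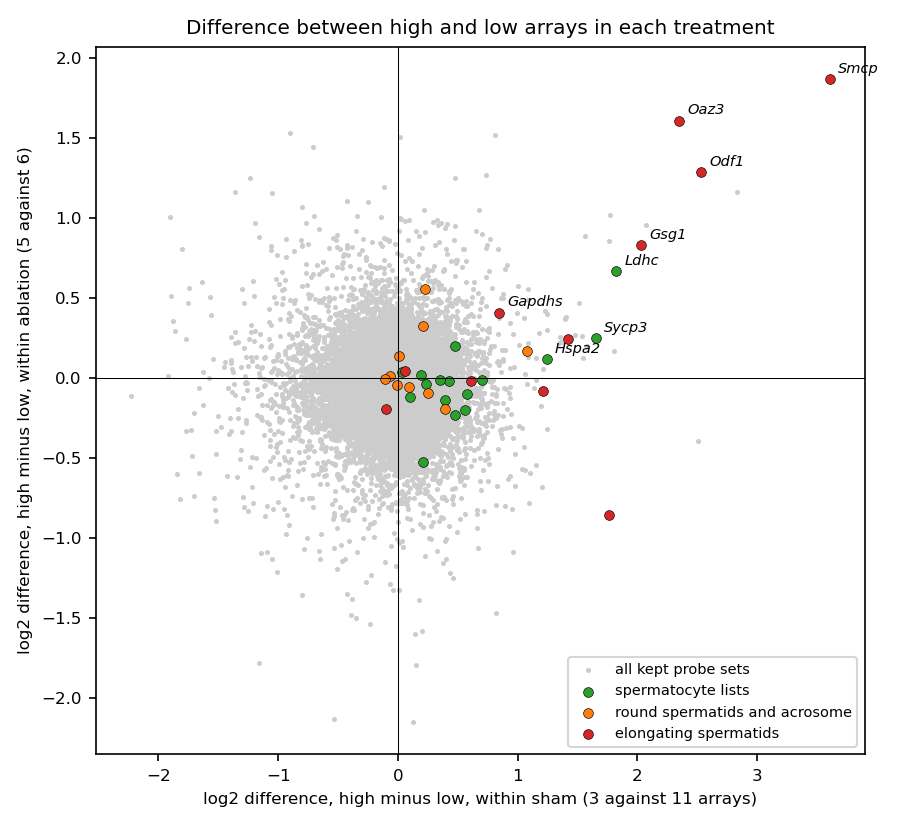
Log2 difference of high minus low arrays within sham (horizontal) and within ablation (vertical) for 20049 kept probe sets, with spermatocyte and spermatid lists coloured. Smcp, Oaz3 and Odf1 lie at the upper right, while Sycp3 and Hspa2 lie to the right near the horizontal axis (0.25 and 0.12 within ablation).

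With the Prm1 classes, all 3 calls were of the elongating spermatid list, and none of the 20 lists other than the spermatid lists had a called gene. At an unadjusted p under 0.05, 1361 probe sets passed (6.79%). Fits with other classes or continuous Prm1 did call genes of the spermatocyte lists, as given above. Lrrc46, a leucine-rich repeat gene, came nearest among genes outside the spermatid lists in the fit with Prm1 classes (0.80 ± 0.17, limma, adjusted p = 0.175). It is named after its values were seen.

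No spermatogonial gene was called, and their differences went both ways. Gfra1, the GDNF receptor of undifferentiated spermatogonia, was -1.17 to -0.83 in high sham arrays and -1.41 to -0.81 in low ones. In ablation it was -0.96 to -0.49 and -0.83 to -0.33. Its difference was 0.01 ± 0.10 (limma, adjusted p = 0.977). Kit, the receptor of differentiating spermatogonia, was -1.56 to -0.59 in the high sham arrays and -1.90 to 0.72 in the low ones (difference -0.36 ± 0.26, adjusted p = 0.744, and -0.72 ± 0.44 within sham). Sall4, a spermatogonial transcription factor, had 0.40 ± 0.56 (adjusted p = 0.864), and 0.93 ± 1.08 within sham. The 11 undifferentiated genes kept had a median difference of 0.00 and 2 of them an unadjusted p under 0.05 downward, where 4.94% of all genes had one. The mean difference of the differentiating list was -0.31 to -0.03 in the high sham arrays and -0.46 to 0.31 in the low ones. Mki67, a marker of dividing cells, had 0.30 ± 0.18 (adjusted p = 0.728).

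No Sertoli, Leydig or peritubular gene was called. Clu, an abundant Sertoli cell glycoprotein, was 5.64 to 6.04 in high and 4.56 to 6.47 in low sham arrays, and Inhbb, an inhibin subunit, was -0.71 to -0.42 and -0.63 to 0.20. Their differences were 0.20 ± 0.17 (limma, adjusted p = 0.78) and -0.28 ± 0.12 (adjusted p = 0.717). Cst12, a cystatin of Sertoli cells whose level depends on germ cells, had 0.14 ± 0.12 (adjusted p = 0.777). Over 16 Sertoli genes the median was -0.06, and over 20 Sertoli genes linked to germ cells -0.04. Leydig cell genes separate the treatments and not the classes: Insl3, a Leydig cell hormone, was 3.48 to 4.43 in high and 3.68 to 4.99 in low sham arrays, and -0.98 to 0.14 and -0.49 to 0.01 in ablation. Its difference between classes was -0.15 ± 0.15 (adjusted p = 0.814). Cyp17a1, an enzyme of androgen synthesis, had 0.06 ± 0.13 (adjusted p = 0.912) and Star, which carries cholesterol into mitochondria, -0.11 ± 0.15 (adjusted p = 0.868). Of 12 peritubular genes, 11 had a difference above 0, where 3838 of all 10938 genes kept had one. The median of the 12 was 0.14, and 0.24 within sham, against -0.05 over all genes in both fits. Of the 12, 2 had an unadjusted p under 0.05 upward, against 1.68% of all genes. Acta2, the smooth muscle actin of peritubular cells, was the only one of the 12 below 0 (-0.13 ± 0.22, limma, adjusted p = 0.884).

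Macrophage genes leaned downward. All 15 had a difference below 0, with a median of -0.21, and 6 had an unadjusted p under 0.05 downward, against 4.94% of all genes. Most genes leaned the same way: of all 10938 kept, only 3838 had a difference above 0, and the median was -0.05. No macrophage gene was called. C1qa, a complement protein made by macrophages, was 0.99, 0.53 and 1.59 in sham 6, 7 and 8, against 1.33 to 2.15 with a median of 1.81 in the low sham arrays. In ablation the high arrays were at 0.69 to 0.81 and the low ones at 0.36 to 1.14. The difference was -0.45 ± 0.12 (limma, adjusted p = 0.488), with -0.76 ± 0.18 within sham and -0.18 ± 0.13 within ablation. On continuous Prm1 its slope was -0.11 ± 0.02 (adjusted p = 0.0452), and without sham 6 it was -0.11 ± 0.03 (adjusted p = 0.316). Cd68, a lysosomal protein of macrophages, had -0.21 ± 0.13 (adjusted p = 0.731), and Ctss, a macrophage protease, had -0.28 ± 0.10 (adjusted p = 0.683) with -0.46 ± 0.11 within ablation. The mean difference of the list was -0.54 in sham 7 and -0.31 in sham 6, below the low sham range of -0.13 to 0.22, and 0.02 in sham 8, within it. It was -0.24 to -0.04 in the high ablation arrays, where the low ones had -0.13 to 0.25.

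**Figure D4:**
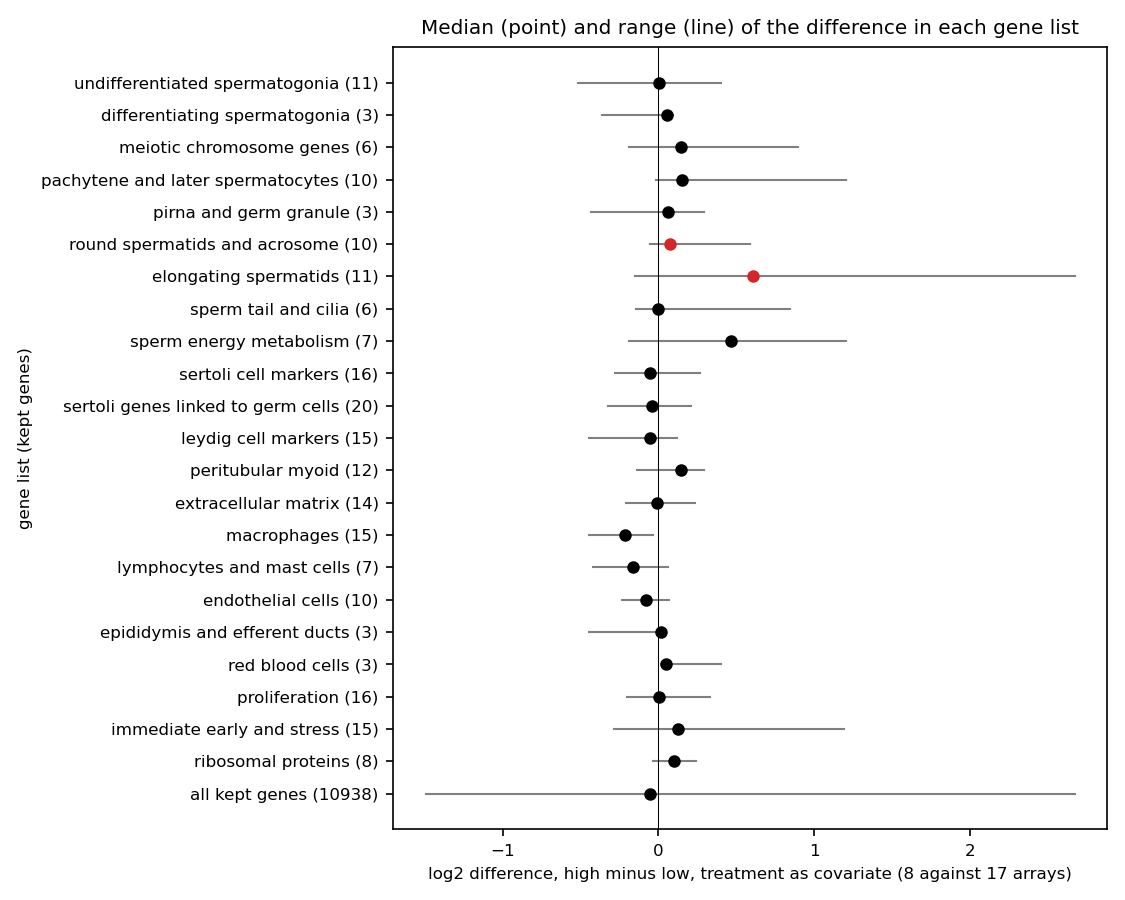
Median (point) and lowest to highest value (line) of the log2 difference between high and low arrays, with treatment as a covariate, over the kept genes of each list; the last line is all 10938 genes kept. The elongating spermatid list has a median of 0.61 and reaches 2.67, and macrophage genes lie wholly below 0.

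Immediate early and stress genes, which respond within minutes to many stimuli, went with the classes within ablation. Fos, an early response transcription factor, was 1.68, 2.67, 2.93 and 1.77 in ablation 4, 5, 6 and 7 and -1.67 in ablation 9, against -1.20 to 1.38 in low ablation arrays. Of 15 immediate early and stress genes kept, 7 had an unadjusted p under 0.05 upward within ablation, where 1.74% of all genes did, and the median difference was 0.31. Within sham the median was -0.01, while Fos itself was 0.65, 1.53 and -1.18 in sham 6, 7 and 8, against -1.18 to 0.65, a difference of 0.81 ± 0.42. The mean difference of the list was 0.82, 0.61, 0.35 and 0.32 in ablation 5, 6, 7 and 4 and -0.23 in ablation 9. Ablation 7, which had the least spermatid signal of the high arrays, was close to ablation 4 in this list. Hbb, the beta chain of hemoglobin, was 2.53 to 3.51 in the high and 1.44 to 3.36 in the low ablation arrays, a difference of 1.11 ± 0.28 (limma, adjusted p = 0.655), and within sham -0.42 ± 0.27. The part of these genes in the spermatid result was not tested.

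Genes of the epididymis, the duct beside the testis that holds sperm, were near their low level in all arrays. The mean signal of 8 epididymis and efferent duct genes was -2.54 to -2.06 in the high sham arrays, against -2.47 to -1.62 in the low ones, and -2.81 to -1.88 in the high ablation arrays against -2.54 to -2.01. None of the 8 was more than 1 above the low arrays in any of the 31 arrays. Crisp1, the abundant epididymal secretory protein, has no probe set that could be named here.

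The calls rest on few arrays. Without sham 6, sham 7 or ablation 4, each in turn, limma called 0 probe sets, and the differences of Oaz3 were then 1.55, 1.93 and 1.80, of Odf1 1.42, 1.73 and 1.74, and of Smcp 2.20, 2.45 and 2.51. The differences kept their direction and the adjusted p was above 0.05 in each of these 3 fits. Signals below the filter level are the lowest 40% of an array, and detection calls were not used here.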

How the data were processed

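Signals of 31 Affymetrix rat arrays were analysed as deposited: the authors made MAS5 signals, per the submitters' processing notes, and put them on a log scale, read here as log2. The MAS5 version, the base of the logarithm and the scaling target are not given in the sources used here. Of 31099 probe sets, 57 controls and the Prm1 probe set were not analysed. The filter kept probe sets above the 40th percentile of their own array in at least 8 of 25 arrays, leaving 20049 (10938 genes). Names came from the platform annotation (20826 probe sets with 1 symbol, 436 with several, 9780 with none). Of these symbols, 20758 were updated by Entrez number. Each gene is its probe set of highest mean.

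Classes were compared with limma 3.58.1 in R 4.3.3 (trended variances, 2-sided, Benjamini-Hochberg adjustment over all kept probe sets, called under 0.05) in 8 against 17 arrays, with treatment as covariate, within each treatment, and as an interaction. The procedure was tested on simulated data. Members and the 22 lists (447 entries, 316 on the array, 221 kept) were chosen with earlier results of these data known. Genes named are up to 10 called per direction, up to 4 called per list and a set of fixed genes. All other genes were named after their values were seen. Replicate numbers did not pair samples: correlations of deviations were -0.0989 to 0.0529 over 11 pairs. The number of arrays limits the precision, and p-values measure the spread between these arrays. No batch is given in the labels. Alternatives changed the filter, scaling, variance model, covariates, classes and arrays.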

Additional observations from a re-analysis of the deposited data

Results flagged for a closer look

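A value was singled out where 1 array of a group of 5 or 6 stood far from the others (Dixon's criterion at 95%). Of 174 groups examined, over 58 genes, 17 were singled out, and chance alone marks about 1 in 20. Sham groups of 3 and 11 arrays are not of a size that was examined.

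Among the 5 high ablation arrays, ablation 4 was far above the rest in Gapdhs at 0.44 (others -0.71 to -0.39), Gsg1 at 0.87 (others -1.24 to -0.78), Akap4 at -2.09 (others -5.83 to -5.23) and Capza3 at -3.87 (others -5.91 to -5.34). It was far below them in Cabyr, at -6.51. The first 2 are above the filter level and the other 3 are below it. Ablation 9 was far below the rest in Fos, at -1.67 against 1.68 to 2.93.

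Among the 6 low ablation arrays, ablation 10 stood apart in Hbb at 3.36 (others 1.44 to 2.06), C1qa at 0.36 (others 0.88 to 1.14) and Meig1 at -6.81 (others -3.59 to -2.75). Ablation 2 stood apart in Odf4 at -3.24 and in Capza3 at -4.41, and ablation 3 in Sall4 at -4.01.

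Among the 6 estradiol arrays, estradiol 6 was high in Fos at 4.00 (others -0.11 to 1.26) and Egr1 at 3.86 (others 1.61 to 2.39). Estradiol 2 was low in Oaz3 at -2.68, estradiol 3 was low in Insl3 at -3.82 and estradiol 1 was high in Tcfl5 at 0.08.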

How the results depend on the processing

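Quantile normalization, centring on array medians, raising low values to the filter level and the filter in 6 of 31 arrays left 3, 3, 3 and 4 calls where the covariate fit had 3. The call count was 7 without a filter and 0 with a filter at the 60th percentile, and 1 each, that of Oaz3, without a variance trend, with array weights and with the description as covariate. With the sham group cut to its 4 arrays described as irradiated, which leaves no high sham array, it was 1, the unnamed probe set lower within ablation, and the 3 calls were lost. With the replicate number as a block (replicate block) it was 0. It was 46 with classes by Tnp1 and 45 with classes by Odf1. Of settings added after the data were seen, Prm1 above the 40th percentile gave 0, leaving out sham 6, sham 7 and ablation 4 together gave 0, continuous Prm1 gave 44, and continuous Prm1 without sham 6 gave 15. Leaving out 1 array gave 0 to 8: 0 without sham 6, sham 7 or ablation 4, 1 without sham 2, 5, 9 or 14 or ablation 5, 8 or 9, 5 without ablation 7 and 8 without sham 8.

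Within sham, where there were 0 calls, there were 4 without a filter, 2 with low values raised, 12 with array weights, 38 with classes by Tnp1, 35 by Odf1 and 27 on continuous Prm1. There were 50, all lower, without sham 6 and sham 7, where sham 8 alone stands for the high class and is assumed to vary like the rest. Leaving out 1 array gave 0 to 29, with 2 without sham 4 and 29 without sham 8. Within ablation the 1 call became 2 without a filter, 0 with the filter at the 60th percentile, 0 with low values raised, 0 with array weights, 0 with Prm1 above the 40th percentile, 3 on continuous Prm1 and 0 to 1 without 1 array (0 without ablation 1, 2, 5, 8, 10 or 11). The interaction had 0 calls, and 0 to 3 without 1 array (1 without sham 4 or sham 6, 3 without sham 8). The cause of these changes was not tested. No value past the threshold changed its direction under these settings.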
